A study of Homo sapiens with 3 samples.

Results

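The levels of genes in untreated HCC827 cells are described here from the single library of cells that received DMSO, the solvent that served as vehicle. HCC827 is an established human lung adenocarcinoma cell line that carries an activating deletion in the kinase domain of EGFR and depends on that receptor for growth. A gene was included where the deposited table gave it a symbol and a level of at least 1 TPM in this library. TPM corrects for transcript length and expresses each gene as a share of a library total of 1000000, so levels can be compared between genes. Of 19715 genes with a symbol, 11386 met the rule, out of 20332 genes listed in all.

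The study measured mRNA in HCC827 cells by RNA sequencing of 3 libraries, and its title concerns daphnane diterpenoids and the DNA damage response that ATR controls. The other libraries came from cells given compound 1 or compound 2 at 5 μM for 24 h and were not compared here. The labels gave the DMSO library as HCC827 cells treated with DMSO, with no dose or time, and gave no further allele or agent. There was 1 DMSO library, so no level below has a replicate error, and differences between genes could not be tested.

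EGFR is a receptor tyrosine kinase of the ERBB family. Ligands such as amphiregulin are made as membrane precursors, cut free by ADAM proteases, and bind the receptor, which signals through the RAS to ERK and PI3K to AKT cascades. Lung adenocarcinomas of this kind often resemble the alveolar type 2 cell, which makes surfactant and is specified by the transcription factor NKX2-1. Their cells are held together by E-cadherin, desmosomes and claudins and carry the simple keratins.

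The promoters of 8 genes that recur below are shown as the 100 bases before the RefSeq start, on the gene's own strand, because the results below return to these genes and to these motifs. Capitals mark TATAAA lying between 40 and 20 bases before the start, GGGCGG on either strand (CCGCCC on the strand shown), and CCAAT on either strand. These motifs do not overlap in the stretches shown. The genes are the driver receptor EGFR and its neighbour SEC61G, the cell cycle kinase CDK4, the receptor MET, the EGFR ligands AREG and EREG, the epithelial transcription factor ELF3 and the secreted defence protein S100A9.
EGFR (GRCh38.p14, chr7:55018917-55019016, plus strand): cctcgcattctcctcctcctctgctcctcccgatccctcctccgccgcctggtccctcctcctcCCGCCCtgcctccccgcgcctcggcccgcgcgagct
SEC61G (GRCh38.p14, chr7:54759212-54759311, minus strand): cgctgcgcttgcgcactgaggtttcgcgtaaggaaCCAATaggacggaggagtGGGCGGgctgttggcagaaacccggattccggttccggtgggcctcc
CDK4 (GRCh38.p14, chr12:57752311-57752410, minus strand): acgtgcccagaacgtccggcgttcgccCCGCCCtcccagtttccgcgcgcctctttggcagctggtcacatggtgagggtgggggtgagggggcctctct
MET (GRCh38.p14, chr7:116672096-116672195, plus strand): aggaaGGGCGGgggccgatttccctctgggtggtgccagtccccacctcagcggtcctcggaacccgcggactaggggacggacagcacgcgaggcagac
AREG (GRCh38.p14, chr4:74445036-74445135, plus strand): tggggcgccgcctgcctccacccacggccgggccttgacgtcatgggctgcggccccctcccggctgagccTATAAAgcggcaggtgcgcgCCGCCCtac
EREG (GRCh38.p14, chr4:74365045-74365144, plus strand): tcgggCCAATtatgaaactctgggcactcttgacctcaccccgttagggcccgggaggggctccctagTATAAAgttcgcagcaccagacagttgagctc
ELF3 (GRCh38.p14, chr1:202010487-202010586, plus strand): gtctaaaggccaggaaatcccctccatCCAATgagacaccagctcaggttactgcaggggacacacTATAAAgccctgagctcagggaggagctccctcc
S100A9 (GRCh38.p14, chr1:153357754-153357853, plus strand): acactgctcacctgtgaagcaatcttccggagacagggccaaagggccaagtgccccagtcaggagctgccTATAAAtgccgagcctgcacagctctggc
TATAAA was found at 29 bases before the start in AREG and in S100A9, at 32 bases in EREG and at 34 bases in ELF3. It was not in that window of EGFR, SEC61G, CDK4 or MET, whose printed stretches each held GGGCGG once on either strand. The AREG stretch also held GGGCGG, as CCGCCC. Over all 15392 genes matched to RefSeq promoters, 3.62% had TATAAA in the window, while 59.2% had GGGCGG and 36.6% had CCAAT on either strand anywhere in the 300 bases from 250 before to 50 after the start. A match is a description of letters and not a binding site.

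The described genes ranged from 1.001 to 16988 TPM. Their median level was 19.6 TPM, with quartiles of 6.82 and 54.6 TPM, against a median of 3.41 TPM over all genes with a symbol. A level from 1 to 10 TPM was given to 3798 of them, 10 to 100 TPM to 5935, 100 to 1000 TPM to 1497, and 1000 TPM or more to 156. Together they held 99.7% of the signal. Of the genes left out, 5550 were at 0 and 2779 lay above 0 but under 1 TPM. The values nearest the threshold were 1.001 TPM for PIGR and RARRES2, 1.002 TPM for ZNF793 and 1.003 TPM for HDX and VSIG10L on the inside. On the outside they were 0.999 TPM for DYRK1B and RGPD8, 0.996 TPM for CFAP300, 0.995 TPM for HTR3A and 0.994 TPM for MARCHF3.

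The most abundant transcripts were those of glycolysis, translation, the mitochondrial genome and the cytoskeleton, with a pair of cancer-related genes among them. GAPDH, a glycolytic enzyme, was highest at 16988 TPM, followed by MT-CO3, a mitochondrially encoded subunit of cytochrome oxidase, at 10177 TPM and RPL7, a ribosomal protein, at 9789 TPM. SEC61G, a subunit of the channel that moves new proteins into the endoplasmic reticulum, ranked 5 at 7674 TPM, and CDK4, the kinase that drives entry into S phase, ranked 10 at 5995 TPM. The remaining genes among the 20 highest were EEF1A1, MT-CO2, ACTB, FTH1, MT-CO1, ENO1, KRT8, RPL26, RPLP0, RPS2, PPIA, RPL41, RPL19, TPI1 and TUBA1B, from 7999 to 4797 TPM. The 10 highest genes held 8.68% of the signal, the 100 highest 34.9%, and the 1000 highest 68.8%. These housekeeping genes have many near-identical copies in the genome. A 31-base word shared with another annotated gene made up 34.3% of the words of GAPDH, 46.9% of those of RPL7 and 33.8% of those of EEF1A1, so part of their reads could not be assigned to a single gene. SEC61G shared none and CDK4 shared 8.07%.

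**Figure D1:**
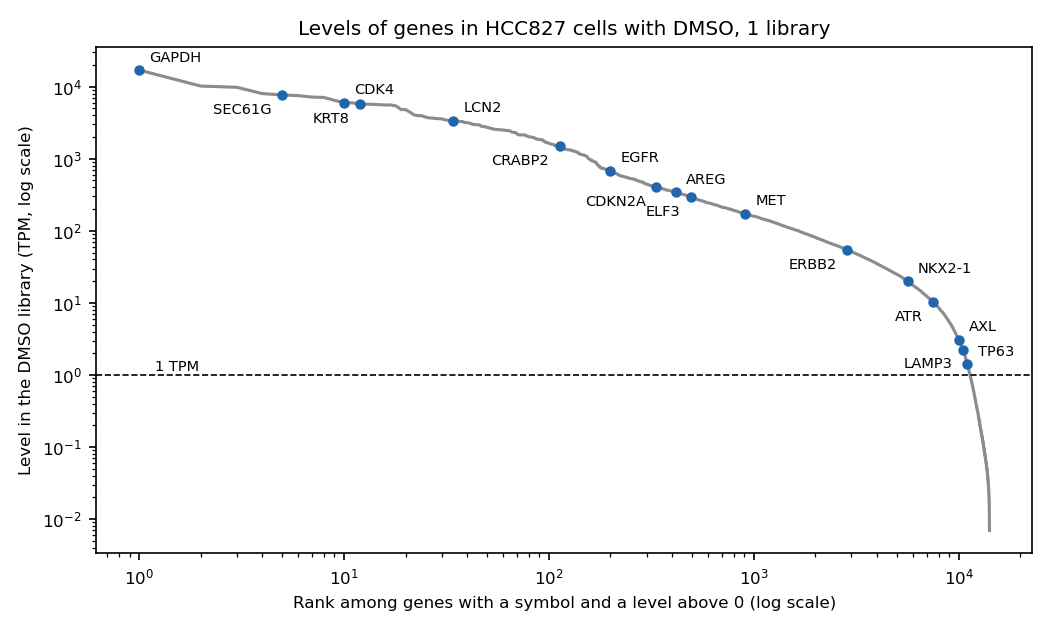
Level of each gene with a symbol and a level above 0 in the DMSO library (TPM, log scale) against its rank (log scale), as a grey line, with named genes as points and a dashed line at 1 TPM. GAPDH stood at 16988 TPM, EGFR at rank 200 with 680 TPM, and TP63 at 1.41 TPM just above the line.

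The 16 glycolytic enzymes were all above 1 TPM, and 12 of them were above 100 TPM, where 57.8% and 8.38% of all genes with a symbol reached these levels. Those percentages are the background against which the counts below are read. ENO1 had 5948 TPM, TPI1 4809 TPM, PKM 3379 TPM, LDHA 3323 TPM, ALDOA 2801 TPM, PGK1 2611 TPM and LDHB 2472 TPM. PGAM1 had 912 TPM, GPI 527 TPM, PFKP 199 TPM and PFKL 114 TPM, while the hexokinases HK1 and HK2, which start the pathway, had 77.5 and 25.5 TPM. The last enzymes of the pathway were thus listed far above the first. The 13 mitochondrially encoded genes ranged between 430 TPM for MT-ND6 and 10177 TPM for MT-CO3. Among families taken by symbol, 85 of 89 cytosolic ribosomal protein genes reached 1 TPM and held 17.1% of the signal, and all 78 mitochondrial ribosomal protein genes, all 38 complex I subunits and all 35 tRNA synthetases did.

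Families that serve other tissues were at or near 0. Of 388 olfactory receptor genes 2 reached 1 TPM, OR4C6 at 3.64 TPM and OR2A7 at 1.01 TPM, and 375 were at 0. None of the 24 bitter taste receptors or 94 keratin-associated proteins of hair reached it. The HOX genes, which record body position, differed by cluster, with 8 of 11 HOXA, 5 of 10 HOXB, 3 of 9 HOXC and 0 of 9 HOXD genes at 1 TPM or more. HOXB7 was the highest at 25.2 TPM, followed by HOXA10 at 22.8 TPM and HOXA3 at 20.2 TPM. The 46 nuclear receptors included 24 at 1 TPM or more, led by NR2F6 at 80.8 TPM. Of 510 ZNF zinc finger genes 402 reached 1 TPM, at a median of 3.42 TPM over the family, so this family was present in most members at low levels.

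The library carried an epithelial programme. The simple keratins, the intermediate filaments of glandular epithelium, held 1.46% of the signal, with KRT8 at 5735 TPM, KRT18 at 4428 TPM, KRT19 at 2463 TPM, KRT7 at 1851 TPM and KRT80 at 144 TPM. KRT20, the keratin of intestinal epithelium, had 0.577 TPM, and KRT23 and KRT86 were at 0. Over all 55 keratin genes 8 reached 1 TPM. KRT8 and KRT18 share 35.3% and 43.2% of their 31-base words with other genes, of which the pseudogenes KRT8P3 and KRT18P11 are the closest. The pair also overlap on opposite strands of chromosome 12 in GENCODE 29 on GRCh38, KRT8 at 52897187 to 52949954 and KRT18 at 52948871 to 52952901, and strand was not stated for these data.

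Of 24 junction genes 23 reached 1 TPM, at a median of 49.0 TPM. EPCAM, an epithelial adhesion molecule, had 611 TPM. P-cadherin (CDH3) had 484 TPM, above E-cadherin (CDH1) at 180 TPM. The claudins of tight junctions were led by CLDN7 at 349 TPM and CLDN4 at 248 TPM. The desmosome and plaque genes JUP and DSG2 had 215 and 111 TPM. CLDN18, a claudin of lung and stomach, was at 0.

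The transcription factors that specify lung and airway epithelium were present at low to moderate levels, 18 of 22 at 1 TPM or more with a median of 10.5 TPM. ELF3, an ETS factor of differentiated epithelium, was the highest member at 292 TPM, and no other member reached 100 TPM. CEBPB had 44.5 TPM, KLF5 39.2 TPM, EHF 35.5 TPM, ETV4 33.0 TPM and ETV5 27.2 TPM. ETV4 and ETV5 are ETS factors that respond to ERK signalling. NKX2-1 had 19.9 TPM, GRHL2 16.0 TPM and FOXA1 14.1 TPM, while FOXA2 had 2.04 TPM, CEBPA 1.42 TPM and FOXA3 and ELF5 were at 0.

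The alveolar type 2 list was divided, with LPCAT1, NAPSA and CTSH well above the threshold and the surfactant proteins at or near 0. LPCAT1, which remodels surfactant lipid, had 489 TPM. NAPSA, the aspartic protease that processes surfactant protein B, had 276 TPM, and CTSH, a cathepsin of the same step, had 66.0 TPM. In contrast SFTPC, SFTPA1, SFTPD and PGC were at 0, SFTPA2 had 0.473 TPM, SFTPB 0.186 TPM and SLC34A2 0.171 TPM. The surfactant proteins are the defining products of the type 2 cell. LAMP3 and ABCA3, lamellar body genes, were just above the threshold at 2.24 and 1.72 TPM, and 5 of 12 members reached it in all. NAPSA shares 8.54% of its words, nearly all with its relative NAPSB.

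The lists of other lung cell types were present in part. Among 8 alveolar type 1 genes, CAV1 had 390 TPM, EMP2 16.2 TPM and RTKN2 2.47 TPM, while PDPN, AQP5 and CLIC5 were at 0 and AGER had 0.407 TPM. Among 12 club and goblet cell genes, AGR2, a disulfide isomerase of mucus cells, had 113 TPM and the airway mucin MUC5B had 71.6 TPM, while SCGB1A1, SCGB3A1 and SCGB3A2 were at 0. RSPH1 at 4.56 TPM was the ciliated gene of 8 that reached 1 TPM, and the ciliary regulator FOXJ1 had 0.313 TPM. Of 12 basal and squamous genes 5 reached 1 TPM, led by KRT15 at 36.3 TPM, SPRR1B at 8.78 TPM and SOX2 at 5.76 TPM. TP63, the regulator of basal cells, was barely inside at 1.41 TPM and KRT5 was at 0. None of the 10 neuroendocrine and tuft genes reached 1 TPM, with NEUROD1, CHGA and SYP at 0.

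Genes of gut and liver were partly on. OLFM4, a marker of intestinal crypt cells, had 158 TPM, and the hepatic and pancreatic factors NR5A2 and HNF4G had 23.6 and 13.6 TPM. HNF4A, CDX1 and GATA4 were at 0, and CDX2 had 0.067 TPM. In all, 9 of 18 members reached 1 TPM.

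Mesenchymal genes were mixed, with 6 of 12 at 1 TPM or more. Fibronectin (FN1) had 57.9 TPM and vimentin (VIM) 23.6 TPM, well under the keratins. SNAI1 had 13.0 TPM and TWIST2 9.96 TPM, whereas ZEB1, ZEB2 and CDH2 were under 1 TPM at 0.277, 0.158 and 0.571 TPM and TWIST1 was at 0. Markers of leukocytes, fibroblasts and endothelium were near or under the threshold. Of 12 leukocyte markers, CD79A at 2.22 TPM and LYZ at 1.86 TPM passed, and the pan-leukocyte gene PTPRC had 0.064 TPM. Of 9 fibroblast markers, ACTA2 and COL1A1 passed at 1.92 and 1.90 TPM, while DCN, LUM and COL1A2 were at 0. None of 8 endothelial markers passed.

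**Figure D2:**
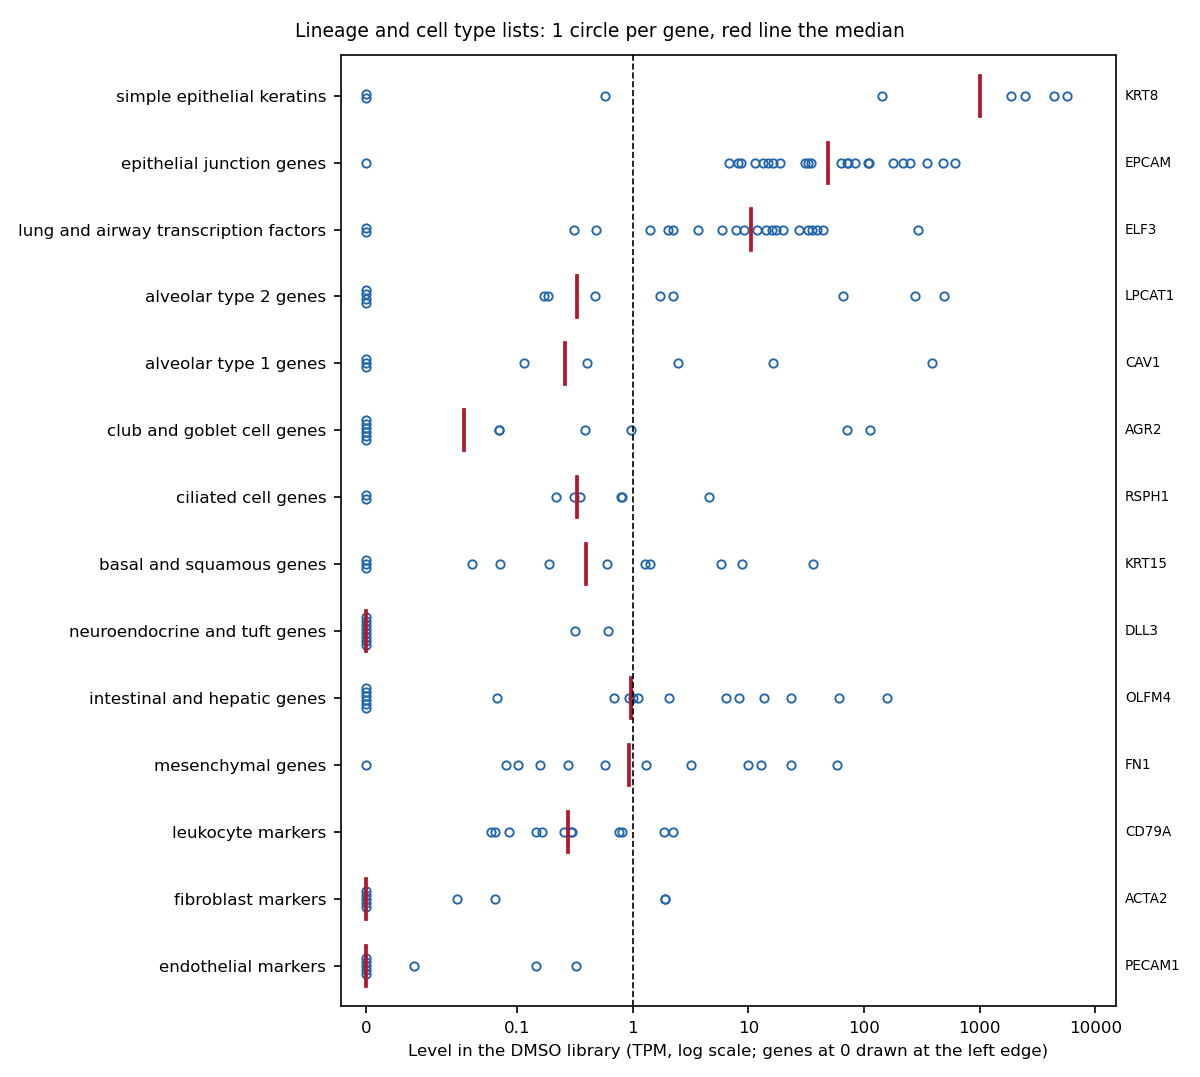
Level in the DMSO library (TPM, log scale) of every gene in 14 lineage and cell type lists, 1 circle per gene, with the list median as a red line, 1 TPM as a dashed line and the highest gene named at the right. The medians of the keratins and junction genes lie to the right of the dashed line at 997 and 49.0 TPM, while the neuroendocrine, fibroblast and endothelial medians are at 0.

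Among the ERBB receptors, EGFR dominated. EGFR, on chromosome 7 at 55019021 to 55211628 (GENCODE 29, GRCh38), had 680 TPM and ranked 200. ERBB2 had 54.1 TPM, ERBB3 26.1 TPM and ERBB4 0.01 TPM. The table gives a level per gene, so the mutant and wild-type alleles of EGFR could not be told apart. EGFR and AREG shared no 31-base word with another gene.

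Transcripts of several ligands of these receptors were present in the same library. AREG had 341 TPM, EREG 146 TPM, TGFA 63.2 TPM, BTC 14.9 TPM and HBEGF 2.99 TPM, so 5 of the 7 EGFR ligands listed reached 1 TPM, whereas EGF itself had 0.158 TPM and EPGN was at 0. NRG1, a ligand of ERBB3, had 30.5 TPM, and NRG2, NRG3 and NRG4 were under 1 TPM. The sheddases that release these ligands, ADAM10 and ADAM17, had 37.5 and 18.4 TPM. AREG and EREG lie side by side on chromosome 4, and both carry TATAAA in the promoter stretches printed above.

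Of 45 other receptor tyrosine kinases, 20 were at 1 TPM or more and 17 at 0, and none reached the level of EGFR. MET, the receptor for hepatocyte growth factor, had 172 TPM, and its ligand HGF had 0.991 TPM. The collagen receptor DDR1 had 104 TPM, EPHA2 68.0 TPM, RYK 46.7 TPM, EPHB2 37.8 TPM, EPHB4 36.9 TPM and FGFR4 22.8 TPM. AXL and IGF1R, receptors studied in resistance to EGFR inhibitors, had 3.09 and 3.30 TPM. ALK, RET, NTRK2 and NTRK3, which are fused in other lung cancers, were at 0, and ROS1 had 0.041 TPM.

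Downstream, all 18 members of the RAS to ERK cascade reached 1 TPM. MAP2K2 and MAP2K1, the MEK kinases, had 112 and 111 TPM, the adaptor SHC1 101 TPM, GRB2 65.3 TPM, MAPK3 54.0 TPM and NRAS 50.2 TPM. HRAS had 41.7 TPM. The feedback inhibitors of the pathway were also present in 14 of 15 cases. ERRFI1, which binds and inhibits EGFR, led them at 166 TPM, and the ERK phosphatase DUSP6 had 36.6 TPM. LRIG1, another EGFR inhibitor, had 0.029 TPM.

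In the PI3K branch 17 of 19 genes reached 1 TPM. RHEB, the activator of mTOR, had 179 TPM, AKT2 120 TPM and AKT1 111 TPM. PIK3CA had 4.91 TPM and PIK3CB 19.9 TPM, while the leukocyte isoforms PIK3CD and PIK3CG were under 1 TPM. Of 18 SRC and JAK-STAT genes 16 passed, with JAK1 at 121 TPM, STAT6 at 105 TPM, SRC at 92.1 TPM and STAT3 at 89.6 TPM. JAK2 and JAK3 were at 0.642 and 0.088 TPM, so of the 4 JAK kinases JAK1 and TYK2, which had 29.6 TPM, were above the threshold.

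Tumour suppressors that lung cancers often lose were mostly expressed, 20 of 21 at 1 TPM or more. CDKN2A, which encodes the CDK4 inhibitor p16 and the unrelated protein ARF, was highest at 406 TPM, and the table does not separate these transcripts. SMARCA4 had 106 TPM, KEAP1 75.7 TPM, RBM10 48.3 TPM and STK11 37.0 TPM. FHIT was at 0. Around CDKN2A on chromosome 9, MTAP had 98.8 TPM and CDKN2B 3.84 TPM, and the interferon genes IFNA1, IFNA2, IFNA6, IFNA8 and IFNA13 were at 0.

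Among other oncogenes CDK4 stood apart. CDK4 had 5995 TPM, against 15.2 TPM for its relative CDK6. Their partner cyclins CCND1 and CCND3 had 141 and 60.3 TPM and CCND2 was at 0. MYC had 220 TPM, whereas MYCL had 0.537 TPM and MYCN was at 0. CTNNB1 had 196 TPM, WWTR1, which encodes TAZ, 132 TPM, and YAP1 43.7 TPM. TERT, the catalytic subunit of telomerase, had 0.665 TPM.

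All 20 proliferation genes passed, and 13 were above 100 TPM. The replicative helicase subunit MCM7 had 457 TPM, PCNA 394 TPM, the mitotic cyclin CCNB1 387 TPM, MCM4 315 TPM, RRM2 302 TPM, TK1 236 TPM and AURKB 229 TPM. TOP2A had 180 TPM, TYMS 162 TPM, MCM2 159 TPM, PLK1 156 TPM, AURKA 149 TPM and MCM3 122 TPM, and MKI67 was the lowest of the list at 41.8 TPM. The ATR and CHK1 pathway, the subject of the study's title, reached 1 TPM in all 17 genes, with a median of 28.4 TPM against 158 TPM for the proliferation genes. RPA3 and RPA1, subunits of the protein that coats single-stranded DNA, had 142 and 127 TPM, TIMELESS 52.5 TPM and the effector kinase CHEK1 48.7 TPM. ATR itself had 10.3 TPM and its partner ATRIP 13.7 TPM. ATRIP shares 32.0% of its words with TREX1.

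The survival genes BCL2L1 (BCL-XL) and MCL1 led the BCL2 family at 248 and 194 TPM, and BCL2 itself had 0.023 TPM. BAX had 86.8 TPM, the NF-kB target BCL2A1 62.8 TPM and BIK 56.0 TPM, and BCL2L11 (BIM), a mediator of death after EGFR inhibition, had 13.7 TPM. Cancer-testis antigens were largely silent, with 10 of 17 at 0. The exceptions were XAGE1B at 480 TPM, CT83 at 42.5 TPM and PRAME at 17.0 TPM. XAGE1B has the same 31-base words as its copy XAGE1A, listed at 408 TPM, so the split between the copies is uncertain.

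Genes of the NRF2 response and of detoxification were high in part, 12 of 29 above 100 TPM. The ferritin chains FTH1 and FTL had 7069 and 2572 TPM, the quinone reductase NQO1 1247 TPM, the glutathione transferase GSTP1 984 TPM, the thioredoxin reductase TXNRD1 857 TPM and TXN 661 TPM. TALDO1 had 259 TPM, PGD 154 TPM and CBR1 106 TPM. AKR1B1 had 202 TPM, AKR1B10 132 TPM and AKR1C3 49.4 TPM. AKR1C1 had 2.07 TPM and AKR1C2 0.324 TPM, but they share 35.5% and 63.5% of their words with other genes, mostly with each other, so their levels are uncertain. SLC7A11, the cystine transporter, had 2.44 TPM and ALDH3A1 was at 0. The list thus held genes among the highest of the library and genes at or near 0. FTH1 shares 50.8% of its words with other genes and FTL 33.3%.

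**Figure D3:**
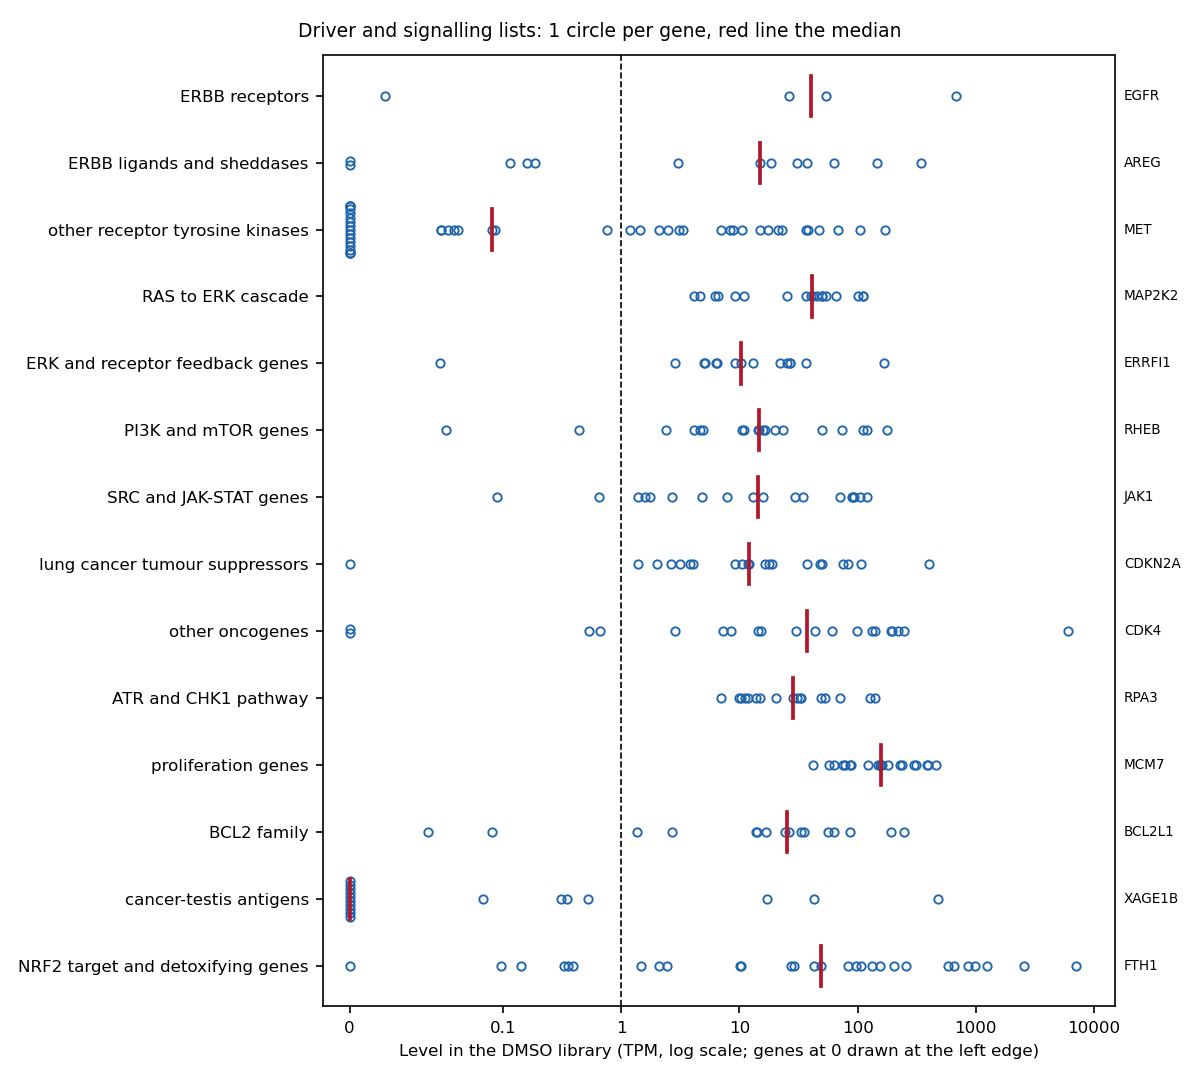
Level in the DMSO library (TPM, log scale) of every gene in 14 driver and signalling lists, 1 circle per gene, with the list median as a red line, 1 TPM as a dashed line and the highest gene named at the right. EGFR at 680 TPM is separated from ERBB2 at 54.1 TPM, CDK4 at 5995 TPM lies apart from the other oncogenes, and the ATR and proliferation lists have no gene left of the dashed line.

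The highest gene of the secreted lists, LCN2 (lipocalin 2, which withholds bacterial iron carriers), had 3368 TPM and ranked 34, and S100A9, a subunit of calprotectin, had 1066 TPM. Its calprotectin partner S100A8 had 8.40 TPM, so the pair were listed at very different levels. SAA1, an acute phase protein that shares 62.8% of its words mostly with SAA2, had 83.7 TPM, MUC1 52.4 TPM and MUC16 17.2 TPM, while MUC5AC had 0.968 TPM and MUC2 0.065 TPM. DEFB4A, a defensin induced in inflamed epithelium, had 70.8 TPM. It was 1 of 3 among 41 beta-defensins above 1 TPM, the others being DEFB1 at 2.78 TPM and DEFB4B at 1.28 TPM. Shared words were not counted for DEFB4A and DEFB4B, so the split between them is uncertain. LTF, TFF1, TFF2 and TFF3 were at 0.

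Chemokines that attract neutrophils formed a group on chromosome 4. CXCL5 had 615 TPM, CXCL1 110 TPM, CXCL2 34.9 TPM, CXCL8 26.9 TPM and CXCL3 17.2 TPM, while CXCL6 in the same stretch was at 0. Of the other chemokines CXCL16 had 54.4 TPM, CX3CL1 17.3 TPM and CCL20 13.0 TPM. The T cell attractants CXCL9 and CXCL11 were at 0 and CXCL10 had 0.098 TPM. In all, 12 of 22 chemokines reached 1 TPM. CXCL1 shares 16.1% of its words, mostly with CXCL2.

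Cytokines were led by MIF at 1517 TPM, a gene that shares 36.3% of its words with another annotated gene. TNFSF13 (APRIL) had 101 TPM, and 53.3% of its words are also in the TNFSF12-TNFSF13 readthrough gene. IL18 had 62.6 TPM, LIF 25.5 TPM and CSF2 (GM-CSF) 24.7 TPM. IL6, IL1A and IL1B were low at 3.40, 5.79 and 5.60 TPM, and TNF and IL33 were at 0. The growth factor list gave 20 of 35 genes at 1 TPM or more, close to the background of 57.8%. MDK, the heparin-binding factor midkine, had 306 TPM, progranulin (GRN) 154 TPM, WNT7B 95.4 TPM, VEGFA 78.4 TPM, ANGPTL4 47.6 TPM and FGFBP1 38.9 TPM. INHBA had 0.115 TPM and IGF2 was at 0.

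Secreted proteases were fewer than their inhibitors above 100 TPM, 4 genes and 8 genes. PLAU, the urokinase plasminogen activator, had 642 TPM, and the lysosomal cathepsins CTSD, CTSB and CTSL had 360, 216 and 143 TPM. MMP7 was the highest matrix metalloproteinase of the list at 71.5 TPM, MMP1 had 9.04 TPM, and MMP3, MMP9 and MMP10 were at 0. In all 12 of 26 proteases and 19 of 23 inhibitors reached 1 TPM. CSTB, SPINT2, TFPI2, CST3, TIMP1, SERPINB1, SPINT1 and SLPI had 499, 386, 284, 173, 139, 134, 133 and 105 TPM. Cystatin B (CSTB) and the clade B serpins act largely inside cells, although they are kept in this list of inhibitors. SERPINB4 and SERPINB3 had 50.3 and 34.97 TPM but share 40.2% and 39.6% of their words with each other, so the split between them is uncertain. CTSD shares 60.9% of its words with another annotated gene.

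Of 30 matrix and matricellular genes 20 reached 1 TPM, and 7 reached 100 TPM. SPP1 (osteopontin) had 605 TPM, tenascin C (TNC) 346 TPM, CCN1 259 TPM and LGALS3BP 217 TPM. The laminin chains LAMB3 and LAMA3, which assemble with each other in epithelial basement membrane, had 146 and 90.4 TPM, and LAMB1 and LAMC1 had 116 and 82.9 TPM. COL4A2 had 24.2 TPM and COL4A1 4.36 TPM, whereas the collagens COL5A1, COL7A1 and COL12A1 and the basement membrane genes LAMA1 and LAMA4 were under 1 TPM and NID1 was at 0. Genes of plasma proteins usually made by liver were present in 15 of 36 cases. The fibrinogen beta chain FGB had 141 TPM against 18.4 TPM for FGG and 3.36 TPM for FGA, complement factors CFB and CFI had 109 and 69.2 TPM, and the antiproteinase SERPINA1 had 64.4 TPM. ALB, APOA1, APOB and HP were at 0. CFB shares 78.4% and CFI 50.5% of its words with other annotated genes.

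At the surface, 23 of 32 genes whose products are targets of therapeutic antibodies reached 1 TPM. After EGFR, EPCAM and CDH3 came the transferrin receptor TFRC at 285 TPM, MET at 172 TPM, tissue factor (F3) at 130 TPM, STEAP1 at 76.8 TPM, CD276 (B7-H3) at 70.9 TPM and CEACAM6 at 59.6 TPM. CEACAM5 had 1.78 TPM, FOLR1 16.8 TPM, NECTIN4 0.97 TPM and MSLN 0.421 TPM. GPC3 was at 0. These are transcript levels and say nothing of protein at the surface.

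Integrins were a few strong genes in a mostly low family, 11 of 25 at 1 TPM or more. The shared beta chain ITGB1 had 647 TPM and its laminin-binding partner ITGA3 372 TPM. ITGA5 had 101 TPM, ITGB5 51.9 TPM, ITGA6 47.0 TPM, ITGB4 34.4 TPM and ITGA2 28.0 TPM. ITGA4, an integrin of leukocytes, had 0.023 TPM. Tetraspanins were more widely present, 15 of 20 at 1 TPM or more and 7 above 100 TPM, with CD63 at 447 TPM, CD9 at 259 TPM, CD81 at 255 TPM, CD151 at 241 TPM, TSPAN3 at 204 TPM, TSPAN31 at 149 TPM and TSPAN1 at 123 TPM.

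Genes that face the immune system covered both display and protection. Class I presentation was led by B2M at 1148 TPM, with HLA-C at 77.2 TPM, HLA-B at 38.0 TPM and the immunoproteasome subunit PSMB8 at 143 TPM. HLA alleles differ between people and from the reference, so the division among these genes is uncertain. The class II genes HLA-DRA and HLA-DRB1 had 8.07 and 8.12 TPM and their activator CIITA 1.92 TPM. CD47, a signal against phagocytosis, had 344 TPM, the complement shields CD59 and CD46 had 277 and 104 TPM, ICAM1 170 TPM and the adenosine-producing enzyme NT5E (CD73) 146 TPM. CD274 (PD-L1) had 12.4 TPM, PDCD1LG2 0.571 TPM, and CD80 and CD86 were at 0.

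Among receptors for the TNF family, TNFRSF12A (the TWEAK receptor) had 532 TPM, LTBR 211 TPM, TNFRSF1A 181 TPM and the TRAIL receptor TNFRSF10B 101 TPM, while CD40 was at 0 and FAS had 5.76 TPM. Transporters were broadly high, 23 of 27 present and 10 above 100 TPM. The amino acid exchanger subunits SLC7A5 and SLC3A2 had 410 and 356 TPM, the glucose transporter SLC2A1 265 TPM the sodium pump subunits ATP1B1 and ATP1B3 202 and 133 TPM, the lipoprotein receptor SCARB1 174 TPM, the sodium channel subunit SCNN1A 110 TPM, and the lactate transporters SLC16A3 and SLC16A1 108 and 99.6 TPM. The drug efflux pumps ABCB1 and ABCG2 were low at 1.31 and 2.86 TPM, and ABCC3 had 92.7 TPM. CFTR was at 0.

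No G protein-coupled receptor listed reached 100 TPM, and 21 of 32 reached 1 TPM. GPRC5A, an orphan receptor of lung epithelium, had 94.1 TPM, ADGRF1 66.6 TPM, the adenosine receptor ADORA2B 56.6 TPM, ADGRE5 52.9 TPM and the protease-activated receptor F2RL1 41.2 TPM. Of the membrane proteases and entry factors, BSG had 528 TPM, the hyaluronan receptor CD44 425 TPM and matriptase (ST14) 212 TPM. The matriptase inhibitors SPINT1 and SPINT2, at 133 and 386 TPM above, were listed beside it. TMPRSS2 was at 0.

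**Figure D4:**
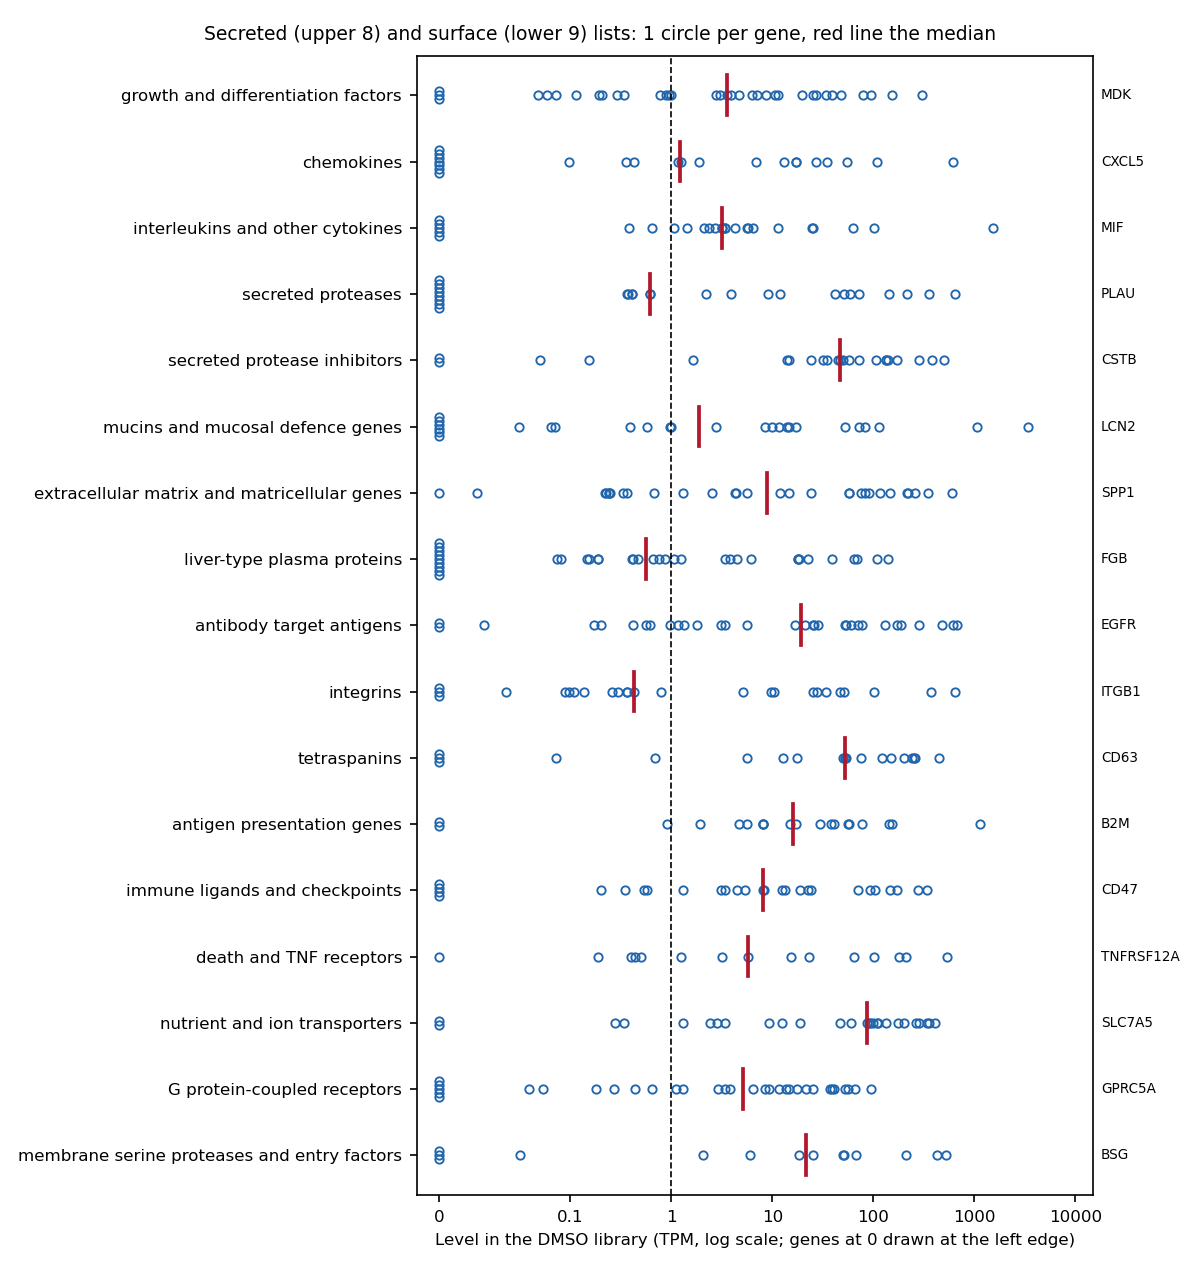
Level in the DMSO library (TPM, log scale) of every gene in 8 secreted lists (upper rows) and 9 surface lists (lower rows), 1 circle per gene, with the list median as a red line, 1 TPM as a dashed line and the highest gene named at the right. Transporters, tetraspanins and protease inhibitors have the highest medians at 86.8, 52.6 and 47.3 TPM, while secreted proteases and integrins have medians under 1 TPM at 0.612 and 0.425 TPM.

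The same cells expressed both sides of some ligand and receptor pairs and a single side of others. The pairs were chosen after the levels had been seen, so their counts are a description of the chosen pairs. Of 51 pairs, 25 had both genes at 1 TPM or more, 18 the ligand alone, 8 the receptor alone and 0 neither. Both sides were present for AREG and EGFR, for PLAU at 642 TPM and its receptor PLAUR at 165 TPM, for SPP1 at 605 TPM and CD44 at 425 TPM, and for VEGFA at 78.4 TPM and NRP1 at 51.4 TPM. The ligand stood alone for CXCL5 and CXCR2, CCL20 and CCR6, VEGFA and KDR, IL18 and IL18R1, GDF15 and GFRAL, and CD274 and PDCD1, in each of which the receptor was at 0. CSF2 had 24.7 TPM and CSF2RA 0.494 TPM, and LIF had 25.5 TPM and LIFR 0.287 TPM. The receptor stood alone for HGF and MET, EGF and EGFR, GAS6 and AXL, MST1 and MST1R, and LTB and LTBR. LTB had 0.407 TPM and LTBR 211 TPM. HGF lay just under the threshold at 0.991 TPM, so the place of its pair turns on the cut.

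High levels clustered around EGFR on chromosome 7. Among 15 genes between 54542325 and 56116400, 12 reached 1 TPM and 10 reached 100 TPM. SEC61G had 7674 TPM, EGFR 680 TPM, LANCL2 563 TPM, VOPP1 2045 TPM, NIPSNAP2 102 TPM, MRPS17 201 TPM, PSPH 219 TPM, CCT6A 1703 TPM, SUMF2 586 TPM and CHCHD2 4051 TPM. Of their 31-base words, MRPS17 shares 46.9% with other genes, CHCHD2 33.8%, CCT6A 18.1% and PSPH 17.3%, while SEC61G, EGFR, LANCL2 and NIPSNAP2 share none. MRPS17 lies within NIPSNAP2 on the same strand, so the levels of these genes may not be fully separate. The genes without signal in the stretch, VSTM2A, SEPTIN14 and NUPR2, were at 0, and ZNF713 and PHKG1 were low at 5.00 and 1.77 TPM. When the described genes were taken in 11021 overlapping windows of 15 neighbours, the window ending at CHCHD2 had the highest median of all, 219 TPM. Over all windows the median was 19.9 TPM and the 95th percentile 54.3 TPM. High windows were also found elsewhere. The next that overlapped neither it nor each other had medians of 185 TPM on chromosome X, 168 TPM on chromosome 1 and 146 TPM on chromosome 17. The windows were chosen after the levels had been seen, and DNA copy number was not measured.

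High levels were also found around CDK4 on chromosome 12, with fewer genes at 100 TPM or more than around EGFR. Among 22 genes between 57472255 and 57959148, 16 reached 1 TPM and 7 reached 100 TPM. CDK4 had 5995 TPM, OS9, an endoplasmic reticulum lectin, 1859 TPM, PIP4K2C 926 TPM, MARS1 245 TPM, DCTN2 222 TPM, TSPAN31 149 TPM and TSFM 103 TPM. In the same stretch ARHGAP9 and KIF5A were at 0, DTX3 had 0.711 TPM, ARHGEF25 0.412 TPM, CYP27B1 0.878 TPM and AVIL 0.187 TPM. CDK4 overlaps TSPAN31 and MARCHF9, which lie on the opposite strand. The window of 15 described genes that ends at CDK4 had a median of 105 TPM. It ranked 7 among windows picked from the highest median down so that none overlapped, not among all overlapping windows.

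**Figure D5:**
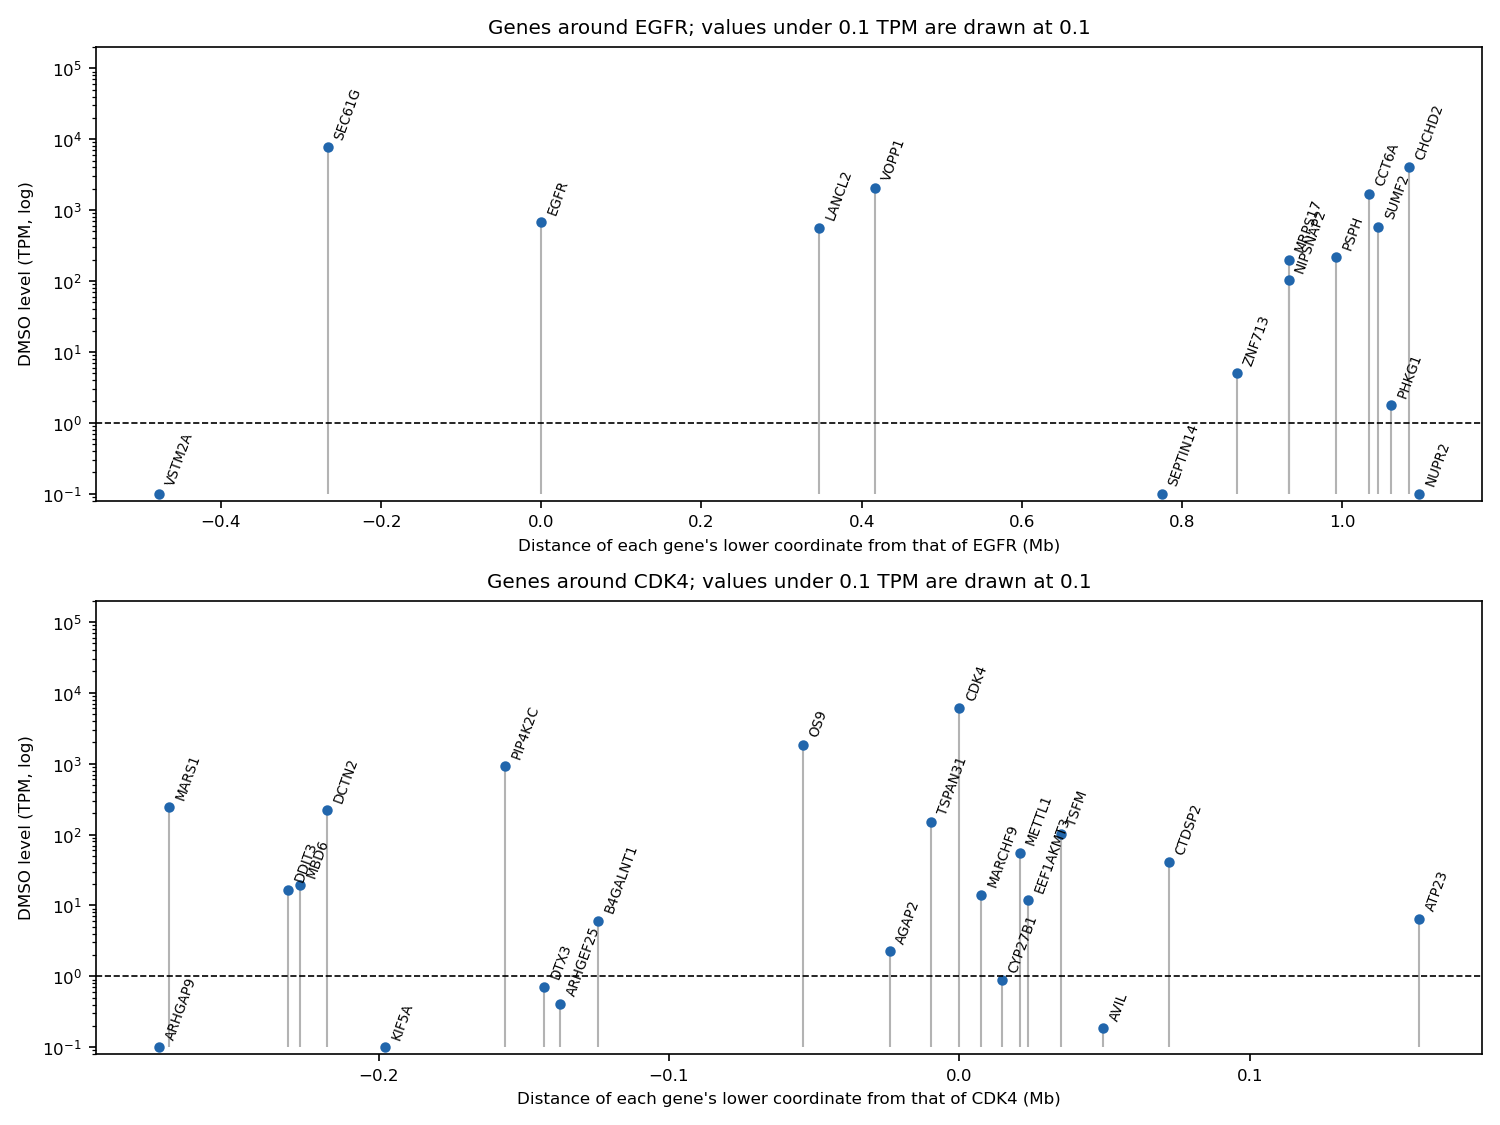
Level in the DMSO library (TPM, log scale) of the genes around EGFR (upper panel) and CDK4 (lower panel) against the distance of each gene's lower coordinate from that of EGFR or CDK4 (Mb), with 1 TPM as a dashed line and values under 0.1 TPM drawn at 0.1. Around EGFR, SEC61G at 7674 TPM and CHCHD2 at 4051 TPM are the highest genes, and around CDK4, OS9 at 1859 TPM comes after CDK4 itself.

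Promoter type differed with the level. RefSeq promoters were matched for 9359 of 11371 distinct symbols among the described genes. The ratio of observed to expected CpG in the 300 bases, which is high in CpG islands, had a median of 0.330 for genes at 0, 0.630 for genes above 0 and under 1 TPM, 0.815 from 1 to 10 TPM, 0.860 from 10 to 100 TPM and 0.873 at 100 TPM or more. Most of the change lay below 1 TPM. The Spearman correlation of this ratio with the level was 0.488 across all 15392 matched genes and 0.14 across the described genes, as a description, since genes of 1 library are not independent replicates.

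TATAAA in the window followed another course. It was found in 8.07% of the promoters of genes at 0, 4.40% above 0 and under 1 TPM, 1.87% from 1 to 10 TPM, 1.11% from 10 to 100 TPM and 2.55% at 100 TPM or more. When the last class was divided after the levels had been seen, it was 2.08% from 100 to 1000 TPM and 7.38% at 1000 TPM or more, which is 9 of 122 promoters. These 9 were RPLP0, PPIA, ANXA2, MT2A, SLC25A5, ANXA1, EEF2, S100A9 and CALR. Among the genes of the lists, those with TATAAA included AREG, EREG, ELF3 and S100A9, shown above, and also TXN at 661 TPM, TFRC at 285 TPM, SLC2A1 at 265 TPM, ICAM1 at 170 TPM, CFB at 109 TPM, MMP7 at 71.5 TPM and CXCL8 at 26.9 TPM. The most abundant genes also had shorter transcripts. The median longest annotated transcript was 1832 bases at 1000 TPM or more, 2544 bases from 100 to 1000 TPM and 3621 bases from 10 to 100 TPM. It was 4342 bases from 1 to 10 TPM but 3352 bases above 0 and under 1 TPM, so length did not rise steadily as the level fell.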

How the data were processed

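The table held 1 DMSO library of HCC827 cells and 2 compound libraries that were not compared. RNA was Trizol-extracted and made into Illumina TruSeq libraries, per the labels' protocols, which do not state strand. The submitters' processing notes name Bowtie 0.12.2 and the builds GRCh38.p12 and mm8 without a role, and the gene annotation is not given in the sources used here. Under headers that name FPKM the authors deposited values whose columns each sum to 1000000, so they are TPM and are called so throughout. Because TPM is a share of the library, very abundant genes lower the rest.

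Depth was not stated. From 276 low values of genes with 1 annotated transcript, 1 read per kb was worth about 0.116 TPM, so 1 TPM on a 2 kb transcript would rest on about 17.3 reads. This step was fitted to those values, of which 57.6% fell within 0.1 of whole reads, and it is approximate. With 1 library no interval or test was computed.

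The members, 47 gene lists and 23 symbol families were chosen with earlier results of these data known. Genes to be named were taken by rule from the 20 highest, up to 6 highest per list and any at 100 TPM or more, members at 0 where a list turns on them, up to 3 per family, 5 on each side of the threshold, and EGFR, ERBB2, ERBB3, MET, CDKN2A, NKX2-1 and ATR. Some genes that the rule takes are not reported here. Other genes were added after their values were seen. Coordinates and shared 31-base words (of the longest transcript) came from GENCODE 29 on GRCh38, and promoters, at the first listed start, from RefSeq on GRCh38.p14. The alternatives were thresholds of 0.5 and 2 TPM, counting genes without a symbol, rescaling without mitochondrial genes or the 10 highest genes, and promoter classes of equal size. Python 3.11.15, pandas 2.3.3, NumPy 2.4.6, SciPy 1.17.1 and matplotlib 3.10.9 were used, and the depth step was tested on simulated data.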

Additional observations from a re-analysis of the deposited data

How the results depend on the processing

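The number of genes with a symbol described, 11386 at 1 TPM, was 11991 at 0.5 TPM, 10666 at 2 TPM, 11497 with genes that lack a symbol, 11410 after rescaling without the mitochondrially encoded genes and 11450 without the 10 highest genes. The share of the signal held by the described genes was 99.8% at 0.5 TPM and 99.6% at 2 TPM, against 99.7% at 1 TPM, and the share of the 10 highest genes was 8.36% without the mitochondrial genes, against 8.68% with them. Of 94 counts over the 47 lists at the other thresholds, 88 stayed within 1.5 times of the count at 1 TPM. The 6 others were 3 basal and squamous genes at 2 TPM, 3 ciliated cell genes at 0.5 TPM, 0 fibroblast markers at 2 TPM, 4 leukocyte markers at 0.5 TPM and 1 at 2 TPM, and 1 neuroendocrine and tuft gene at 0.5 TPM. With 4 equal classes of the genes above 0 in place of fixed classes, TATAAA was found in 1.89% of promoters in the highest and 4.12% in the lowest class, against 2.55% and 4.40%. The median CpG ratio in these classes was 0.873 and 0.682, against 0.873 and 0.630. Leaving out a replicate was not possible with 1 library. Genes near 1 TPM rest on the fewest reads of those described, and levels of genes with near-identical copies depend on how the authors assigned shared reads.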

Other observations

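The DMSO library also held 617 genes without a symbol, which together made up 0.203% of its signal, and 111 of them reached 1 TPM. The highest were ENSG00000285043 at 269 TPM and ENSG00000277196 at 226 TPM. By chromosome, chromosome 12, which holds GAPDH, CDK4, KRT8 and KRT18, took 11.6% of the signal, and chromosome 17 had the highest median over its described genes, 28.9 TPM.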
